A study of Mus musculus with 3 samples.

Results

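The 10 trophoblast lineage genes described here were Esx1, Plac1, Plet1, Elf5, Eomes, Gcm1, Tfap2c, Prl3d1, Prl3b1 and Tpbpa, which code for regulators and products of the cells that build the placenta. They were followed through every probe set to which the platform annotation gives only that gene symbol. Of the 10 genes, 7 had such probe sets, 15 probe sets in all of the 45037 analysed. Gcm1, Prl3d1 and Prl3b1 had none and were not analysed here.

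The mutant pools were whole Dnmt3l-/+ embryos at 8.5 days post coitum (dpc) on a C57Bl/6J background, conceived by Dnmt3l-/- mothers mated with wildtype males, with 8 and 6 litter mates of mixed sex in pools 1 and 2. The normal pool was 6 C57Bl/6J litter mates of mixed sex at the same age, on 1 array. Each pool went on 1 single-channel Affymetrix array, and the labels number the mutant pools as replicates 1 and 2. The labels call the mutants deficient in maternal methylation, and the question here is how transcript levels in such embryos compare with those of normal ones. Because these are pools of whole embryos, fewer cells of a type and less RNA per cell cannot be told apart.

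Trophoblast is the outer lineage of the early embryo. Its stem cells sit in the extraembryonic ectoderm and are kept by transcription factors that include Eomes, Elf5 and Tfap2c. They give rise to the chorion, which becomes the labyrinth where exchange with maternal blood takes place, and to the ectoplacental cone, which gives spongiotrophoblast and giant cells. Esx1 and Gcm1 act in the labyrinth, Tpbpa marks the ectoplacental cone and spongiotrophoblast, and Prl3d1 and Prl3b1 are placental lactogens of giant cells. Dnmt3l has no methyltransferase activity of its own and helps the enzymes that set maternal imprints in the growing oocyte.

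Esx1 was the 1 member that rose past the test over all probe sets, with 5.56 times the normal signal in the mutant pools, and Plac1 had 3.58 times and missed the threshold. Tpbpa was lower in both mutant pools on each of its 3 probe sets, where the mutant signals were 32.8 or lower. The stem cell factors Tfap2c, Elf5 and Eomes gave higher values in mutant pool 1 than in pool 2, and none passed. Plet1 gave opposite directions on different probe sets.

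The windows upstream of Esx1, Plac1 and Tpbpa are shown because these are the members whose mutant and normal signals lay furthest apart in both pools. Each is the 250 bases before a transcript start in RefSeq's table for GRCm38.p6, on the minus strand, written from 5′ to 3′ along the gene, with CpG dinucleotides in capitals. The deposited signals name no genome build.

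Esx1, chrX:137120327-137120576: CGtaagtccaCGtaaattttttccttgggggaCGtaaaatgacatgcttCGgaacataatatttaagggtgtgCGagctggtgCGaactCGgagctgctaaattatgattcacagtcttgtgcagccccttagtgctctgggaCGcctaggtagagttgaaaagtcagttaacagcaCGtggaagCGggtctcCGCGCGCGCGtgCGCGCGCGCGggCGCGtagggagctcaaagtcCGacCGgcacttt

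Plac1, chrX:53240111-53240360, the outer start: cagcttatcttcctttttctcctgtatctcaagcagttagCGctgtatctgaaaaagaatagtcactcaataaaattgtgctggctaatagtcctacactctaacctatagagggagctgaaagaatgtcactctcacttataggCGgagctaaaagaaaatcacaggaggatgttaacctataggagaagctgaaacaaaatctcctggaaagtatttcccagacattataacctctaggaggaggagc

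Plac1, chrX:53114406-53114655, the inner start: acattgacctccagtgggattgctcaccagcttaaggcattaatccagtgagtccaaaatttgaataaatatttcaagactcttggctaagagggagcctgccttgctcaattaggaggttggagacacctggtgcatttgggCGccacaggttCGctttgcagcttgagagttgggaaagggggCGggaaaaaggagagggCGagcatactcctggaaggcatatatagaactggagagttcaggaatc

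Tpbpa, chr13:60941937-60942186: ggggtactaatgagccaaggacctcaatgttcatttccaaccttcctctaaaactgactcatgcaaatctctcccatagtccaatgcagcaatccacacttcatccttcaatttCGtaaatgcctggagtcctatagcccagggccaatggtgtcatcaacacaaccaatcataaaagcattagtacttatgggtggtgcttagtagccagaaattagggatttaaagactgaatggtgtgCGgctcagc

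The Esx1 window held 24 CpG dinucleotides, and 12% of the 32851 RefSeq windows of this length held at least as many. Its transcript start lies 1805 bases downstream of the start annotated for the gene. The outer and inner Plac1 windows held 2 and 4, and the Tpbpa window held 2, against a median of 6 over all windows. The motif GCCNNNGGC, the usual form of an AP-2 site and the kind of site that Tfap2c binds, was present in the Tpbpa window and in 0 of the other 10 windows of the members, while 13.7% of all windows held it. TATAAA, read on both strands, was present in the Plet1 and Prl3b1 windows, 2 of 11, against 12.4% of all windows. In all, 9 of the 10 members had a window. These are counts of letters, and no methylation was measured in these samples.

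Log2 ratios below are means over the mutant arrays of log2(signal + 31.92) minus that of the normal array, where 31.92 is the median over arrays of the 20th percentile of signal. They understate the change of dim genes. Limma was fitted across the 27022 probe sets that were not dim, and a probe set rose or fell where its Benjamini-Hochberg adjusted p over all of these was under 0.05. The fit took the 1 normal array to vary as the mutant arrays do. Median signals were 130 and 140 on the mutant arrays and 144 on the normal array. Dnmt3l itself, with 183 and 14.3 in mutant pools 1 and 2 and 12.2 in the normal pool, was removed as dim. These embryos carry a paternal wildtype allele, so it did not check the labels. The labelled tissue held heart, neural and somite genes on every array, with summed signals of 8763 and 11020 in the mutant pools and 19010 in the normal pool over 12 genes.

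Of the 15 member probe sets, 9 passed the filter on dim probe sets, and they covered 5 genes. Limma called 1 of these 9 higher, against 0.548% of all kept probe sets, and 0 lower, against 0.0296%. At an unadjusted p under 0.05, limma gave 4 higher, against 6.7% of kept probe sets, and 0 lower, against 6.86%. The filter had removed the 3 probe sets of Tpbpa. In the limma fit without the filter, Tpbpa probe sets 1438190_x_at and 1415808_at were lower, with unadjusted p of 0.0060 and 0.0074 (adjusted p 0.322 and 0.339). Over all 15 probe sets, kept or not, both mutant arrays lay above the normal array in 9, against 32.6% of the 45037, below it in 4, against 39.4%, and on either side of it in 2.

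**Figure D1:**
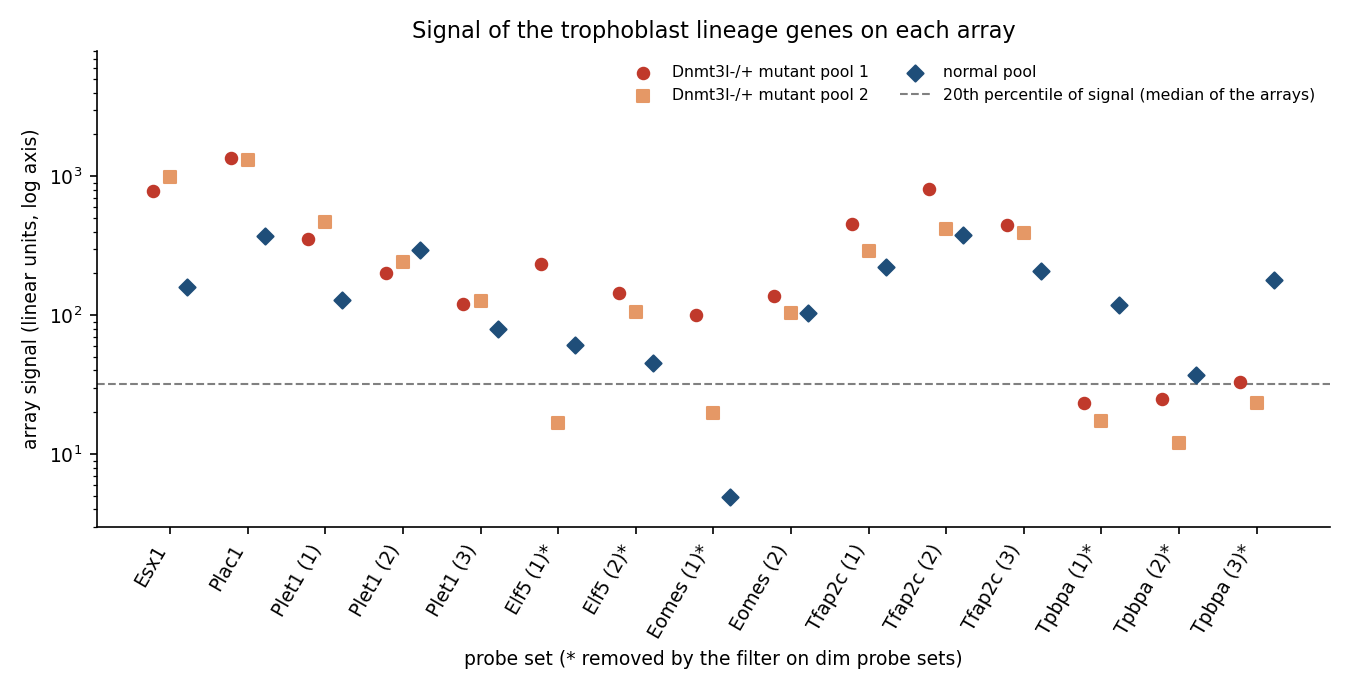
Array signal (log axis) of each of the 15 probe sets of the 7 measured genes, with a circle and a square for mutant pools 1 and 2 and a diamond for the normal pool. Numbers in brackets count the probe sets of a gene, an asterisk marks the 6 that the filter removed, and the dashed line is at 31.92. Both mutant pools lie above the normal pool for Esx1 and Plac1 and below it for all 3 Tpbpa probe sets.

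Esx1, a homeobox transcription factor gene on the X chromosome that is needed for normal labyrinth growth, read 786 and 982 in mutant pools 1 and 2, against 159 in the normal pool. Both mutant pools were well above the normal pool. The gene had 1 probe set (1420602_a_at), whose ending marks probe sets that read several transcripts of 1 gene. The mutant mean was 884 ± 139 (SD, n = 2), and the log2 ratio was 2.25 (SE 0.28, limma adjusted p = 0.0498). On their own, mutant pools 1 and 2 gave log2 ratios of 2.10 and 2.41. The signal stood at percentiles 81.2 and 83.9 of the mutant arrays and at percentile 52.4 of the normal array. The call lay on the edge of the threshold and held in 5 of 9 other settings of the fit, with adjusted p from 0.0233 to 0.188. It was lost with a doubled pseudocount, with quantile normalization, without the filter on dim probe sets and without the trend of variance on signal.

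Plac1, also on the X chromosome, codes for a secreted or surface protein of trophoblast that is needed for a placenta of normal size. It read 1359 and 1302 in mutant pools 1 and 2, against 371 in the normal pool. The mutant pools lay close together, 1331 ± 40.3 (SD, n = 2), and both were above the normal pool. Plac1 too had 1 probe set (1417553_at). The log2 ratio was 1.76 (SE 0.23), 1.79 in pool 1 and 1.73 in pool 2, and the limma adjusted p of 0.058 missed the threshold. It passed with median centring (adjusted p = 0.0358) and in none of the other 8 settings, whose highest adjusted p was 0.182.

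**Figure D2:**
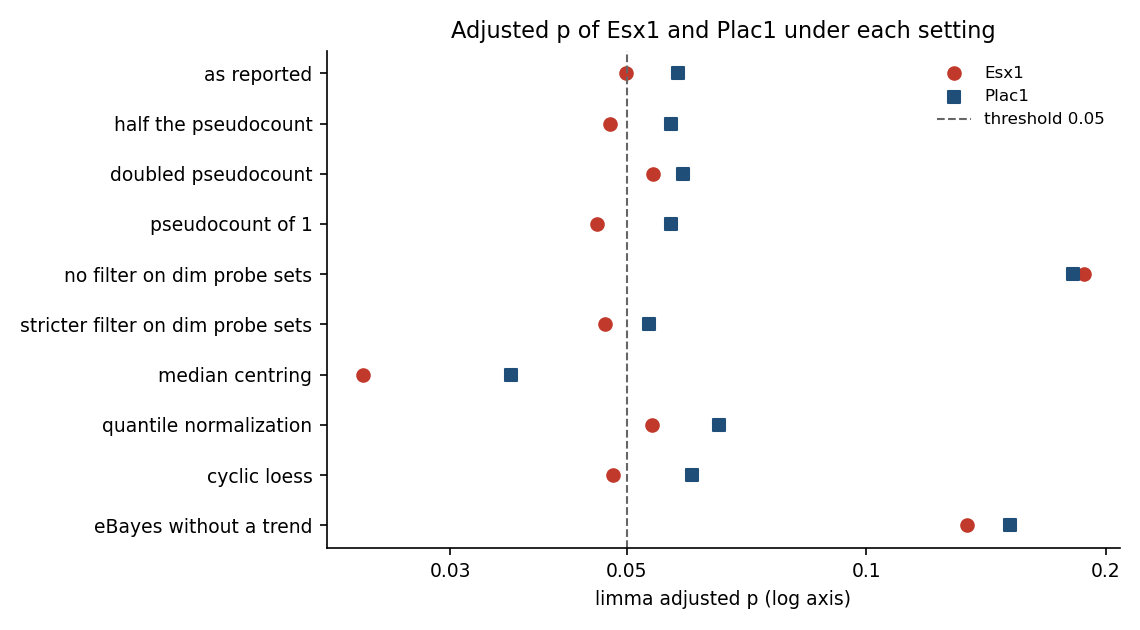
Limma adjusted p (log axis) of Esx1 (circles) and Plac1 (squares) as reported and under 9 other settings of the fit, with the threshold of 0.05 as a dashed line. Esx1 lies at 0.0498 as reported and between 0.0233 and 0.188 elsewhere, and Plac1 is left of the line only with median centring.

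Both of these genes are X-linked, and signals of sex-specific transcripts differed between the same arrays. Xist, the RNA of the inactive X chromosome, read 2736 and 3213 in the mutant pools and 1296 in the normal pool (log2 ratio 1.17, SE 0.21, limma adjusted p = 0.109). These values are from the brightest of its 3 probe sets, and the mean over its kept probe sets would be 0.60. The Y-linked gene Eif2s3y read 351 and 544 in the mutant pools and 752 in the normal pool (log2 ratio -0.74), while Kdm5d and Uty had mutant signals on both sides of the normal one. The 431 kept X-linked genes had a median log2 ratio of 0.01, against -0.02 for all 12913 genes, and 11 of them rose, which is 2.55% against 0.728% of all genes. The part of sex makeup in the Esx1 and Plac1 values was not tested.

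Other X-linked genes known from trophoblast or extraembryonic tissue were read from a short list of 8, of which 6 were measured and kept. Of these, 3 rose and 0 fell by limma, against 0.728% and 0.031% of all kept genes, with 5 higher and 0 lower at an unadjusted p under 0.05, against 8.01% and 4.24%. The homeobox genes Rhox5 (2.73, SE 0.17, limma adjusted p = 0.0111), Rhox6 (3.13, SE 0.29, 0.0269) and Rhox9 (2.47, SE 0.27, 0.0365) were those that rose. Cited1, a transcriptional coactivator of the placenta, had a log2 ratio of 0.86 and did not pass. The list was drawn up with earlier results of these arrays known, so its counts are no independent support for a direction.

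The genes whose pair of mutant log2 ratios was closest to that of Esx1, over the 2 mutant arrays and 12913 genes, were Fxyd2, Slc40a1 and Selenop. Their largest differences from Esx1 were 0.1, 0.113 and 0.114 on the log2 scale. Fxyd2, a regulator of the sodium pump, gave 2.20 and 2.49. Slc40a1, the iron exporter ferroportin, gave 2.04 and 2.52, and Selenop, a plasma selenium carrier, gave 2.21 and 2.40. Likeness over 2 arrays that share 1 normal array is a description only.

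Tpbpa, which codes for a secreted protein of the ectoplacental cone and spongiotrophoblast, was lower in the mutant pools on every probe set. Its brightest probe set (1438190_x_at) read 32.8 and 23.3 in mutant pools 1 and 2, against 180 in the normal pool. A second (1415808_at) read 23.4 and 17.4 in the mutant pools, against 118 in the normal pool. On both, the normal pool stood well above both mutant pools, at percentiles 55.2 and 45.4 of its array.

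The third Tpbpa probe set (1415809_at) was dim throughout, with 25.0 and 12.1 in the mutant pools and 36.9 in the normal pool. The 3 log2 ratios were -1.83, -1.52 and -0.46 in the order given. All 3 probe sets were removed by the filter, so the adjusted p-values come from the fit without it, where they were 0.322, 0.339 and 0.657 by limma. At least 2-fold lower signal in both mutant arrays, as 2 of the 3 had, was found in 1.83% of all probe sets. The sizes rest on mutant signals near the pseudocount, and the ending of 1438190_x_at marks probes that may also bind other transcripts.

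The brightest probe set of Tpbpb, a close relative of Tpbpa, read 105 and 155 in the mutant pools and 124 in the normal pool (log2 ratio 0.03). The mutant pools lay on either side of the normal pool. Prl8a2, a prolactin-family gene of the maternal decidua, fell to 91.2 and 111 in the mutant pools, against 1376 in the normal pool (log2 ratio -3.41, SE 0.30, limma adjusted p = 0.0213). Cebpb, a transcription factor of decidua and many other tissues, had a log2 ratio of 1.59 (SE 0.25, limma adjusted p = 0.0885), the matrix gene Lum had 1.57 and the progesterone receptor gene Pgr -0.62, and these did not pass.

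Of the 14 decidua and uterus genes measured, 8 were lower and 4 higher in both mutant pools, against 37.4% and 36% of all 18193 genes, and none was at 0. Over the 12 kept, the median log2 ratio was -0.19, 0 rose and 1 fell by limma, against 0.728% and 0.031% of kept genes, and 1 was higher and 1 lower at an unadjusted p under 0.05, against 8.01% and 4.24% of kept genes. Over the 14 measured, summed signals were 16800 and 18780 in the mutant pools and 16940 in the normal pool. Of these, Igfbp4, named after its values were seen, made up 12350 and 12510 in the mutant pools and 11530 in the normal pool. The part of maternal tissue in the Tpbpa values was not tested.

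**Figure D3:**
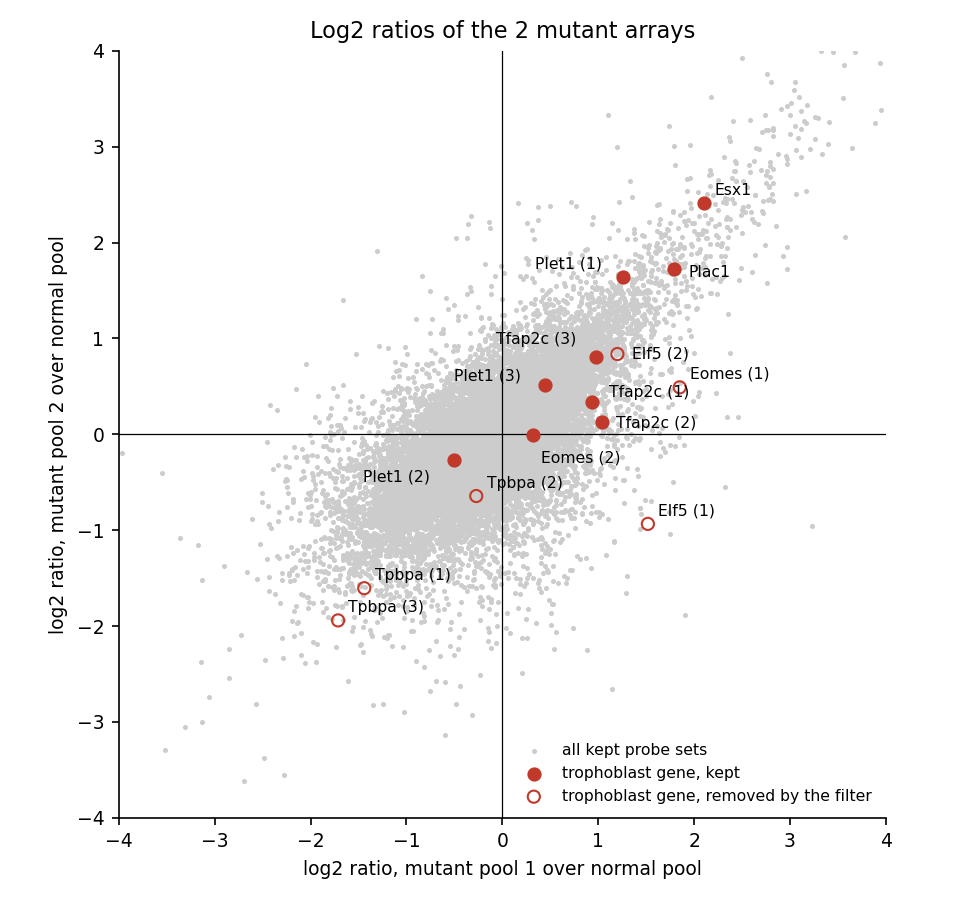
Log2 ratio over the normal pool in mutant pool 1 (x axis) and mutant pool 2 (y axis) for the kept probe sets (grey) and the 15 member probe sets (red, filled where kept and open where removed as dim). Esx1 and Plac1 sit at the upper right and 2 Tpbpa probe sets at the lower left, while Elf5, Eomes and Tfap2c spread toward pool 1. The plot leaves out 12 kept probe sets beyond a log2 ratio of 4 in either direction.

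Tfap2c, the transcription factor AP-2 gamma, was measured by 3 kept probe sets and was higher in both mutant pools on each. The brightest (1436392_s_at) read 813 and 418 in mutant pools 1 and 2, against 380 in the normal pool. Its ending marks probe sets that may read several transcripts of a family. A second (1418147_at) read 451 and 288 in the mutant pools, against 221 in the normal pool. In both cases pool 1 stood apart and pool 2 was close to the normal pool, with log2 ratios of 1.04 and 0.13 on the brightest.

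On the third Tfap2c probe set (1448977_at) the mutant pools were alike, with 442 and 388 against 208 in the normal pool. Its log2 ratio was 0.89 (SE 0.28, limma adjusted p = 0.275), and those of the other two were 0.58 and 0.64 in the order given. None passed. Tfap2c is also active in surface ectoderm and primordial germ cells. Of 10 surface ectoderm genes, 0 passed limma, with 3 higher and 0 lower at an unadjusted p under 0.05, against 8.01% and 4.24% of kept genes, and their median log2 ratio was 0.36, with summed signals of 21480 and 21300 in the mutant pools and 16180 in the normal pool. Of the 10, 6 were higher and 2 lower in both mutant pools, against 36.5% and 39.1% of kept genes. Krt19, an epithelial keratin, had 0.81, the tight junction gene Cldn6 had 0.64 and Grhl3 had 0.68, while Tfap2a (-0.49) and Wnt6 (-0.30), named after their values were seen, were the 2 lower ones.

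Of 7 germ cell genes measured, 5 were kept, 0 passed limma, and 0 were higher and 1 lower at an unadjusted p under 0.05, against 8.01% and 4.24% of kept genes. Their summed signals over the 7 genes were 3193 and 2897 in the mutant pools and 3363 in the normal pool, and the median log2 ratio of the 5 kept was 0.12. Ifitm3 (-0.68), Dnd1 (0.44) and Prdm1 (0.17) had the largest shifts shared by both pools among the 5 kept. No gene of either list was at 0. The part of these cells in the Tfap2c values was not tested.

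Elf5, an ETS transcription factor that holds trophoblast stem cells in their state, was dim on both of its probe sets. One (1419556_at) read 145 and 105 in the mutant pools, against 45.0 in the normal pool, and both mutant pools were above the normal pool. The other (1419555_at) read 234 in mutant pool 1 and 16.6 in pool 2, against 60.8 in the normal pool, so the mutant pools fell on either side of it. The log2 ratios were 1.02 and 0.29, and in the limma fit without the filter the adjusted p-values were 0.493 and 0.953.

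Eomes, a T-box factor needed for trophoblast stem cells, had 1 kept probe set (1435172_at), which read 138 and 103 in the mutant pools and 104 in the normal pool. Pool 2 was level with the normal pool, and the log2 ratio was 0.15 (SE 0.36, limma adjusted p = 0.888). A dim probe set (1426001_at) read 101 and 19.8 in the mutant pools and 4.91 in the normal pool. Its normal signal was under the pseudocount, so the log2 ratio of 1.17 has no firm size, and the adjusted p was 0.595 by limma without the filter.

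Plet1, a surface protein of the extraembryonic ectoderm and of other epithelia, was the member whose probe sets disagreed. The first (1423933_a_at) read 351 and 468 in the mutant pools, against 128 in the normal pool, with both mutant pools clearly above. The second (1423934_at) read 200 and 240 in the mutant pools, against 296 in the normal pool, so both were below it. The third (1454254_s_at) read 120 and 127 in the mutant pools, against 79.2 in the normal pool.

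The Plet1 log2 ratios were 1.45 (SE 0.31), -0.39 (SE 0.30) and 0.48 (SE 0.34) in that order, with limma adjusted p of 0.162, 0.637 and 0.602. None passed, and no direction can be given for the gene. The second probe set is the brightest by mean log2 signal and stands for the gene in the list counts, where the mean over its 3 probe sets would be 0.52. Endings _a_at and _s_at mark probe sets that read several transcripts, of 1 gene and of a family. Which transcripts these probes bind was not analysed here.

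With each gene read from its brightest kept probe set, the 5 member genes had log2 ratios from -0.39 to 2.25, with a median of 0.58 against -0.02 over all genes. The median rested on mutant pool 1, where it was 1.04, while it was 0.13 in pool 2. The middle gene was Tfap2c, read from 1436392_s_at alone. Over all 7 measured genes, dim ones included, 4 were higher and 2 lower in both mutant pools, against 36% and 37.4% of all 18193 genes, and the median was again 0.58. At least 2-fold higher signal in both mutant arrays was found in 3 of the 9 kept probe sets, those of Esx1 and Plac1 and the first of Plet1, against 2.57% of kept probe sets.

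Other trophoblast genes were read from 5 lists arranged by site, which were drawn up with earlier results known. Of their 85 genes, 75 were measured and 45 were kept. None of the 45 passed limma, against 0.728% of genes called higher and 0.031% called lower, while 9 were higher and 3 lower at an unadjusted p under 0.05, against 8.01% and 4.24% of kept genes. Their median log2 ratio was 0.17.

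Chorion and labyrinth genes were higher in both mutant pools for 8 of the 13 kept and lower for 2, against 36.5% and 39.1% of kept genes. The median log2 ratio was 0.46, none passed limma, and 5 were higher and 0 lower at an unadjusted p under 0.05, against 8.01% and 4.24% of kept genes. Gjb2, the gap junction protein connexin 26, read 1046 and 1700 in mutant pools 1 and 2, against 176 in the normal pool (log2 ratio 2.72, SE 0.35, limma adjusted p = 0.0557). Tfeb, a factor needed for labyrinth vessels, read 434 and 294 in the mutant pools, against 136 in the normal pool (1.22). Peg10, an imprinted gene of retrotransposon origin, read 808 and 259 in the mutant pools, against 130 in the normal pool (1.61), so its size rested on pool 1.

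Stem cell and extraembryonic ectoderm regulators had log2 ratios from -0.82 to 0.91, with a median of 0.19 over 13 genes. Of these, 9 were higher and 4 lower in both mutant pools, against 36.5% and 39.1% of kept genes. None passed limma, and 1 was higher and 1 lower at an unadjusted p under 0.05, against 8.01% and 4.24% of kept genes. Gata2, a trophoblast and blood factor, had 0.91, the signal Bmp4 had 0.54, and Sox2, which the neural tube also expresses, had -0.82. Cdx2, named after its values were seen, read 1184 and 494 in mutant pools 1 and 2, against 1252 in the normal pool. Its shift rested on pool 2. Summed signals were 15290 and 14480 in the mutant pools and 14900 in the normal pool.

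Ectoplacental cone and spongiotrophoblast genes, 11 of them kept, centred on a log2 ratio of 0.10 (median) and included members far apart on either side. Phlda2, an imprinted brake on placental growth, read 642 and 330 in the mutant pools, against 3735 in the normal pool (log2 ratio -2.93, SE 0.40, limma adjusted p = 0.061). Nrk, an X-linked kinase of spongiotrophoblast that is also on the X-linked list, read 1893 and 5347 in the mutant pools, against 547 in the normal pool (2.47, limma adjusted p = 0.186). Gjb5, a connexin of the ectoplacental cone, read 344 and 210 in the mutant pools, against 57.3 in the normal pool (1.76, limma adjusted p = 0.169). Of the 11, 6 were higher and 1 lower in both mutant pools, against 36.5% and 39.1% of kept genes. None passed, and 2 were higher and 1 lower at an unadjusted p under 0.05, against 8.01% and 4.24% of kept genes. The imprinted regulator of the ectoplacental cone Ascl2, named after its values were seen, was dim, with 16.8 and 29.5 in the mutant pools and 26.2 in the normal pool.

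Giant cell regulators and proteases were mostly dim, and 5 of 15 were kept. Hand1, a factor of giant cells that the allantois, amnion and heart also use, read 2233 and 1710 in the mutant pools, against 750 in the normal pool (log2 ratio 1.35, SE 0.25, limma adjusted p = 0.12). Nr6a1 had -0.81 and the gelatinase gene Mmp9 -0.40. None of the 5 passed, and 1 was higher and 1 lower at an unadjusted p under 0.05, against 8.01% and 4.24% of kept genes. The 15 genes had 8 and 5 signals under 31.92 on mutant arrays 1 and 2, and 8 on the normal array.

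Placental prolactin-family genes were lower in both mutant pools for 13 of the 16 measured and higher for 2, against 37.4% and 36% of all 18193 genes. Prl3c1, among the 13, is also on the decidua and uterus list and was counted as lower there too. Signals of the family were low throughout, and 9 and 7 of the 16 were under 31.92 on mutant arrays 1 and 2, against 4 on the normal array. Summed signals were 558 and 668 in the mutant pools and 1079 in the normal pool. Only 3 were kept, and none passed limma, against 0.728% of kept genes called higher and 0.031% called lower. Of the 3, 0 had an unadjusted p under 0.05, against 8.01% of kept genes higher and 4.24% lower. The 3 kept were Prl2a1 (log2 ratio -0.63), Prl7b1 (-0.60) and Prl7c1 (-0.21). The median over the 16 was -0.37. Without the filter, limma gave 0 higher and 1 lower at an unadjusted p under 0.05, against 1249 and 722 of all 18193 genes. Prl7a1, a giant cell and spongiotrophoblast product named after its values were seen, was dim in the mutant pools, with 0.974 and 19.0 against 135 in the normal pool.

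The same mutant arrays carried higher signals of yolk sac endoderm. Of 19 such genes kept, 16 rose and 0 fell by limma, against 0.728% and 0.031% of kept genes, with a median log2 ratio of 2.68 and summed signals of 122100 and 129100 in the mutant pools and 22080 in the normal pool. None of the list was at 0. Those that rose were the apolipoprotein genes Apoa1, Apoa4, Apob, Apoc2 and Apom, the fibrinogen genes Fga, Fgb and Fgg, Afp, Ttr, Rbp4, Cubn, Amn, Hnf4a, Slc39a5 and Cldn2, with log2 ratios from 1.74 (Ttr) to 3.85 (Apob). Lrp2 (1.44), Entpd2 (0.35) and Alb (-0.77) did not pass.

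Heart, neural and somite genes of the embryo proper were lower in both mutant pools for all 11 kept, against 39.1% of kept genes, with a median log2 ratio of -1.11. None passed limma, and 0 were higher and 9 lower at an unadjusted p under 0.05, against 8.01% and 4.24% of kept genes. The somite clock gene Hes7 had -2.03, the heart factor Tbx5 -1.45 and the forebrain factor Otx2 -1.34. Uncx of this list, named after its values were seen, was removed as dim and went the other way. It read 37.0 and 148 in the mutant pools, against 14.5 in the normal pool. The parts of yolk sac and embryo proper in the values of the members and of the other trophoblast lists, Gjb2 included, were not tested.

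**Figure D4:**
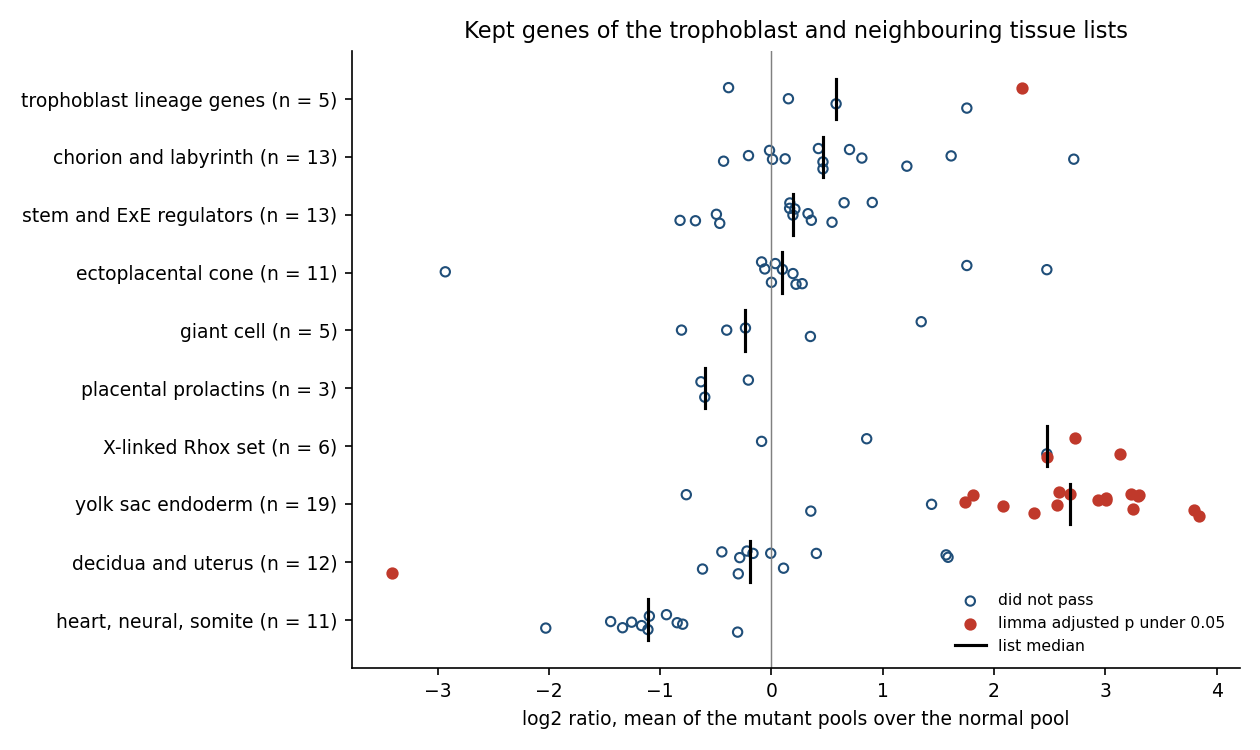
Log2 ratio (mean of the mutant pools over the normal pool) of each kept gene, by list, with filled red points for limma adjusted p under 0.05, open points for genes that did not pass and a black bar for the list median. Member genes have a median of 0.58, chorion and labyrinth genes 0.46, placental prolactins -0.60 over 3 genes, and yolk sac endoderm genes 2.68. ExE stands for extraembryonic ectoderm.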

How the data were processed

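Gene expression was measured on 3 Affymetrix arrays, 1 per pool of whole embryos. Per the labels' protocols, Trizol was used for RNA extraction and the cRNA carried biotin. The deposited values are intensity on a linear scale. GCOS and MAS5 are named, with no version, in the submitters' processing notes. All arrays had a trimmed mean of 500 (2% cut from either end), so from the values they had been scaled to a common level. Such scaling takes total signal to be alike in the pools. The genome build is not given in the sources used here.

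The 64 control probe sets were left out, which left 45037. Genes were named from the platform annotation, in which 34945 probe sets had 1 symbol, 932 had several and 9160 had none listed, and looking symbols up by gene identifier changed 0 of them. The filter took the average of the mutant and normal group means of log2(signal + 31.92) and dropped probe sets under its percentile 40. Limma (version 3.58.1, R 4.3.3) was fitted with lmFit and eBayes with a trend, two-sided, and checked on simulated data. The simulation gave the normal array the spread of the mutant arrays, so it could not check that assumption of the fit. Residual degrees of freedom numbered 1, all of it between mutant arrays, with 4.52 prior degrees of freedom. No exact permutation test was run, since 3 arrays allow no p below 0.333. No label says whether the mutant pools came from separate litters, so the p-values measure only the spread between these samples, which may be technical. They cannot show whether the normal pool was typical, and the number of arrays limits the precision. The members and gene lists were chosen with earlier results of these data known.

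Named genes were all members with every probe set, and from each other list the genes that passed and up to 3 more with the largest shift shared by both pools. The 3 genes nearest to a member that passed were those with the smallest largest difference in the 2 log2 ratios. Alternatives changed the pseudocount, filter, scaling, variance trend, probe set rule or the mutant arrays used.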

Additional observations from a re-analysis of the deposited data

How the results depend on the processing

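No paired analysis was possible because the normal group is 1 array and its label carries no replicate number. The 156 probe sets called over the array became 0 without the filter on dim probe sets (4874 had an unadjusted p under 0.05 by limma), 0 without the variance trend (3455) and 287 with median centring. The count of 1 member probe set called, Esx1, became 0 with a doubled pseudocount, quantile normalization, no filter or no trend, where 4, 4, 6 and 4 member probe sets had an unadjusted p under 0.05 by limma, and 2 with median centring, which added Plac1. The cause was not tested. The count of member probe sets at least 2-fold higher or lower in both mutant arrays was 3, all higher, and became 5 without the filter, with 3 higher and 2 Tpbpa probe sets lower. Leaving out 1 mutant array, with no test, gave 3 to 5 such probe sets, all higher, and member medians from 0.13 to 1.28 (0.58 as reported), where the higher values are those of mutant pool 1 alone. The median of 1.28 is over the 6 genes kept in that setting, and over the 5 genes as reported the median in pool 1 was 1.04. With the stricter filter the member median was 1.17 over 4 genes. By gene, the Eomes log2 ratio was 0.318 without mutant pool 2 and turned to -0.013 without mutant pool 1, and that of Plet1 to 0.52 with the mean of its probe sets. No other member or named gene recomputed changed direction under the alternatives run. Tpbpb, Ascl2, Kdm5d, Uty and the Elf5 probe set 1419555_at were not among those recomputed. Each had mutant pools on either side of the normal pool, so its direction depended on the pool. Sizes did move with the mean of a gene's kept probe sets in place of the brightest. Log2 ratios were then smaller for Hand1 (1.01), Apob (2.48), Hnf4a (1.685), Cldn2 (2.32) and Lrp2 (0.86). They were larger for Afp (2.56), Ttr (1.93), Apoa1 (2.83) and Cubn (3.54). Dim signals limit what can be said of Elf5, Eomes, Tpbpa and the prolactin family.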

Other observations

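Genes of the extraembryonic mesoderm, allantois and amnion were higher in both mutant pools for 7 of the 9 kept and lower for 2, against 36.5% and 39.1% of kept genes. Their median log2 ratio was 1.03, and it was 1.11 in mutant pool 1 and 0.66 in pool 2. None passed limma, and 5 were higher and 0 lower at an unadjusted p under 0.05, against 8.01% and 4.24% of kept genes. Postn, which codes for a matrix protein, read 1039 and 2626 in mutant pools 1 and 2, against 394 in the normal pool (log2 ratio 1.99, limma adjusted p = 0.221). Col1a1, a collagen chain, read 775 and 3729 in the mutant pools, against 343 in the normal pool (2.22, limma adjusted p = 0.355), so its size rested on pool 2. Hand1 of this list is also on the giant cell list.

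Bhlhe40, a basic helix-loop-helix factor placed on the giant cell list, was named after its values were seen. It was removed as dim and read 117 and 279 in the mutant pools, against 14.8 in the normal pool.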
